A study of Arabidopsis thaliana with 4 samples.

Results

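The expansin superfamily of Arabidopsis thaliana was taken as 35 loci: the alpha-expansins EXPA1 to EXPA26, the beta-expansins EXPB1 to EXPB5, the expansin-like A genes EXLA1 to EXLA3 and the expansin-like B gene EXLB1. Members were found by locus code among the 27416 gene rows of the deposited tables, and 34 of the 35 had a row. EXPA19 (AT3G29365) was not analysed here. The rows comprised 25 EXPA, 5 EXPB, 3 EXLA and 1 EXLB gene.

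Whole seedlings of the Col-0 ecotype gave 4 poly(A) RNA-seq libraries, 2 in each group. In the group called CNT1, seedlings carried 35S::CNT1-NLS-YFP, a transgene for the N-terminal photolyase homology region of the blue-light receptor cryptochrome 1 (CRY1) fused to an NLS (nuclear import sequence) and to YFP, a fluorescent tag. In CNT1-G283E seedlings the transgene was 35S::CNT1-G283E-NLS-YFP, the same fusion with the G283E substitution. Both groups were in the cry1 background, mutant for that receptor, and in both the 35S promoter, which is active in most tissues, drove the transgene. All seeds germinated on medium with 1% sucrose, with 3 days in the cold, 12 h of white light and 4 days of blue light at 15 μmol/m2/s, and seedlings had a growth time of 4.5 days. The comparison asked which genes CNT1 regulates. The labels do not say whether each genotype is 1 transgenic line or whether replicates are separate cultures, so p-values measure the spread between these libraries, which may be technical.

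Expansins are small secreted proteins that loosen the plant cell wall at acidic pH without cutting its polymers, and by this they let turgor enlarge the cell. Alpha-expansins act at contacts between cellulose and the wall matrix and are the expansins best tied to acid growth. Beta-expansins are best known from grasses, and no wall-loosening activity is established for the expansin-like proteins. In seedlings, elongation of the hypocotyl in darkness gives way under blue light to growth of the cotyledons, and expansin genes are read in both organs, in root hairs and in emerging lateral roots.

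Promoter windows are shown for members that changed in the same direction and shared 1 of the searched motifs, leaving aside the short ACGT core. Each window holds the 300 bases before the annotated gene start, read from the TAIR10.1 genome, the RefSeq copy of the TAIR10 assembly named in the submitters' processing notes. The motifs were the G-box CACGTG, bound by bHLH and bZIP factors, and the core ACGT within it. The others were the E-box variant CACATG, bound by PIF factors, the brassinosteroid-response element CGTGNG, and, as auxin-response elements, TGTCTC and the variant TGTCGG. All were searched on both strands, and CGTGNG can overlap the first 2. EXPA5 and EXPA6, which were lower in CNT1, both held TGTCTC, EXPA6 on the opposite strand, where it reads GAGACA. EXPA6, EXPB3 and EXLA2, also lower, held CGTGNG. The lower call of EXPA6 was lost in some alternative fits, given below. EXPA12 and EXLA3, which were higher in CNT1, both held TGTCGG on the opposite strand, as CCGACA. EXPA12 and EXPA1, also higher, held CACATG, in EXPA1 as an overlapping match on each strand. EXPA12, in both pairs, passed the filter on low values (given below) only through its CNT1 libraries, which favoured its higher call. Capitals mark every match except the ACGT core.
EXPA5 (chr3:11013452-11013751, minus strand): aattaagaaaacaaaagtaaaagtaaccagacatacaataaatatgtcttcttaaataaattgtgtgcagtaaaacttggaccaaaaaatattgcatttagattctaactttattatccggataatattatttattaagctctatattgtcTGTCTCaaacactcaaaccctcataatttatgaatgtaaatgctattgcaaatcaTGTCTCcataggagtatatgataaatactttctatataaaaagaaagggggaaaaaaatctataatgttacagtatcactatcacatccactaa
EXPA6 (chr2:12433797-12434096, minus strand): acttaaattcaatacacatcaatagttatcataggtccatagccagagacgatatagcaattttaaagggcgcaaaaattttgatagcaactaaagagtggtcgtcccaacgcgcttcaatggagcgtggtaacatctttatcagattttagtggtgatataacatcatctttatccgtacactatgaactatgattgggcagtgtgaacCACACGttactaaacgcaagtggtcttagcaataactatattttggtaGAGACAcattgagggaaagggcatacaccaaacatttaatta
EXPB3 (chr4:14002125-14002424, minus strand): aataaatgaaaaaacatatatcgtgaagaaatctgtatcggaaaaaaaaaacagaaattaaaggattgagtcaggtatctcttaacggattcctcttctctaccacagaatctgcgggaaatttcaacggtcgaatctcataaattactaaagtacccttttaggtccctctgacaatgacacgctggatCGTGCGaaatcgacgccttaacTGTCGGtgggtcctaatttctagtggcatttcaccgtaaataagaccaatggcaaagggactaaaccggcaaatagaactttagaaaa
EXLA2 (chr4:17979741-17980040, minus strand): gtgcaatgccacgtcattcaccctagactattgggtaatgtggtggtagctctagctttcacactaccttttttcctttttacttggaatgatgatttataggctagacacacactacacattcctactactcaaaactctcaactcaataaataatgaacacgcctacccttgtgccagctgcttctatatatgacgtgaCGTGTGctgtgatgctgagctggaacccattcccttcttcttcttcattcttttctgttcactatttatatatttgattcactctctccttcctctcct
EXPA1 (chr1:26141426-26141725, plus strand): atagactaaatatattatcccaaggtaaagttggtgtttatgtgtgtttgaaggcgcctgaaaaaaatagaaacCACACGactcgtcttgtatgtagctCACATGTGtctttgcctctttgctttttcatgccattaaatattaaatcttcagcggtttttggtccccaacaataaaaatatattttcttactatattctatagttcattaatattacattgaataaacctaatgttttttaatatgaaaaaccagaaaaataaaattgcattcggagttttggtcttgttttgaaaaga
EXPA12 (chr3:5190254-5190553, plus strand): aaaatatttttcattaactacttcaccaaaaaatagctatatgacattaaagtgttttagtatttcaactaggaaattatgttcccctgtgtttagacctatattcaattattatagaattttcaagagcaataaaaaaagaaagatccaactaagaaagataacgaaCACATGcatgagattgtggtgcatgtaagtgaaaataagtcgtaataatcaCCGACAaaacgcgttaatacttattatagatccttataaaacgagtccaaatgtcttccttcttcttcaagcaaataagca
EXLA3 (chr3:16892402-16892701, plus strand): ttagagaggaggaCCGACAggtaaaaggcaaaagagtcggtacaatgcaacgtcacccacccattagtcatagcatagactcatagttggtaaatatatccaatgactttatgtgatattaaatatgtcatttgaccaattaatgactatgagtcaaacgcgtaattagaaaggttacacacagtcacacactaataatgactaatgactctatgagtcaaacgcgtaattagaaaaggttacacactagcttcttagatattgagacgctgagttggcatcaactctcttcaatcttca

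Over all 34 members, CACATG was in 9 (26.5%, against 12.6% of all 31345 windows) and CGTGNG in 8 (23.5%, against 14%). The motif CACGTG was in 2 (5.88%, against 6.54%), TGTCTC in 4 (11.8%, against 12.9%) and TGTCGG in 3 (8.82%, against 4.87%). ACGT was in 17 (50%, against 47.7%). Among the 12 members that were lower in CNT1, 0 held CACGTG and 0 held CACATG, against 8.16% and 13.1% of the 18972 windows of genes that were tested. The motif CGTGNG was in 3 of these 12 members (25%, against 14.7% of tested genes). TGTCTC was in 2 of 12 (16.7%, against 12.7%) and TGTCGG in 1 of 12 (8.33%, against 5.47%). The core ACGT was in 5 of 12 (41.7%, against 49.1%). Of the 4 members that were higher, 2 held TGTCGG, 2 held CACATG, 1 held CGTGNG, 1 held ACGT, and neither CACGTG nor TGTCTC was found. EXPA12, whose higher call was favoured by the filter, was counted under both TGTCGG and CACATG. Members without a call held the motifs too. Of the 8 tested but not called, 4 held CACATG, 3 CGTGNG, 2 TGTCTC, 1 CACGTG, 5 ACGT and 0 TGTCGG. Of the 10 not tested, 3 held CACATG, 1 CGTGNG, 1 CACGTG, 6 ACGT and 0 either auxin-response element. No difference between these sets was tested. A match describes the letters of this window and is not evidence of a bound site, and a window without one says nothing about sites elsewhere.

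The denominators of the RPKM values (reads per kilobase of gene model, scaled to library depth) were recovered from the values themselves. They were 28524534 and 28098772 reads in the CNT1 libraries and 27065174 and 24436863 reads in the CNT1-G283E libraries. The recovered reads of all genes summed to more, 103.6% to 103.9% of the denominators, and the reason was not tested. Replicates lay close together: among the 17 expansins averaging at least 5 RPKM, the median difference was 2.48% between the CNT1 libraries and 6.66% between the CNT1-G283E libraries, against 55.5% between the group means. The corresponding medians over all 14404 genes of that level were 3.85%, 5.44% and 19.3%. CRY1 was read at 823.2 and 825.4 RPKM in CNT1 and at 1152 and 1036 RPKM in CNT1-G283E. Its log2 fold change, CNT1 minus CNT1-G283E, was -0.41 ± 0.058 (SE; limma adjusted p = 0.000534). It does not check the labels, because both groups carry a CRY1 transgene that a gene-level value cannot tell from the other or from endogenous transcript. For the same reason, whether transgene level differs between the groups cannot be read from it.

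Of the 34 expansins, 24 had at least 1 RPKM in at least 2 libraries and were tested. Of these, 16 passed an adjusted p of 0.05 in limma, 12 of them lower and 4 higher in CNT1. Among the 4, EXPA12 passed the filter only through its CNT1 libraries, so its place there was favoured by the filter. The background was wide: 60.0% of the 19201 genes tested passed, 29.0% lower and 31.1% higher in CNT1. On the log2(RPKM + 1) scale, 6 of 24 members were lower by 2-fold or more, as were 5.25% of all tested genes, and 2 of 24, EXPA12 among them, were higher by as much, as were 3.93%. The median log2 fold change (CNT1 minus CNT1-G283E, as throughout) was -0.22 over the tested members and 0.02 over all tested genes. The values of the groups did not overlap in 21 of the 24, as in 80.9% of all tested genes.

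**Figure D1:**
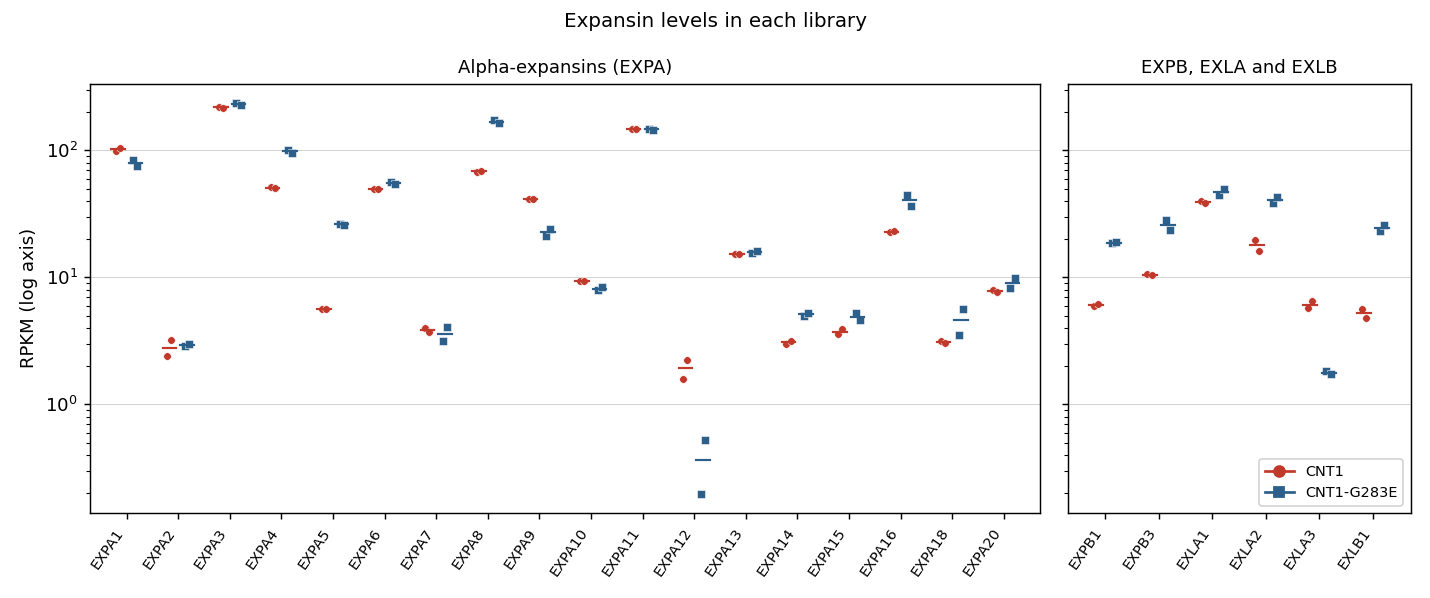
RPKM (log axis) of the 24 tested expansins in each library, with CNT1 as red circles and CNT1-G283E as blue squares; horizontal bars are group means of 2 libraries. EXPA3 and EXPA11 sit at like high levels in both groups, whereas EXPA5, EXPA8, EXPB1 and EXLB1 sit lower and EXPA9 and EXLA3 higher in CNT1.

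In CNT1, 7 alpha-expansins fell, led by EXPA5 and EXPA8. EXPA5 (AT3G29030), which has been linked to growth under brassinosteroid, was read at 5.607 and 5.664 RPKM in CNT1, against 26.51 and 26.02 RPKM in CNT1-G283E. Its level was 4.66-fold lower in CNT1, a log2 fold change of -2.04 ± 0.062 (SE; limma adjusted p = 2.19e-07). EXPA8 (AT2G40610) had 67.26 and 69.12 RPKM in CNT1 and 172.1 and 164.7 RPKM in CNT1-G283E, a 2.47-fold lower level (-1.29 ± 0.042, limma adjusted p = 2.71e-07). In both genes, each pair of replicates differed by far less than the groups did.

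EXPA4 and EXPA16, whose coding sequences were 81.1% identical, both fell. EXPA4 (AT2G39700) stood at 51.17 and 50.19 RPKM in CNT1 and at 101.4 and 95.94 RPKM in CNT1-G283E (-0.95 ± 0.045, log2, SE; limma adjusted p = 1.34e-06). EXPA16 (AT3G55500) stood at 22.65 and 23.22 RPKM in CNT1 and at 44.54 and 36.59 RPKM in CNT1-G283E (-0.79 ± 0.085; limma adjusted p = 0.000117). The EXPA16 libraries of CNT1-G283E differed from each other by 19.6%, the widest gap of that group among expansins of at least 5 RPKM, yet both lay above both CNT1 libraries. EXPA14, which acts in lateral root formation downstream of the factor LBD18, averaged 3.08 ± 0.116 RPKM in CNT1, against 5.11 ± 0.232 RPKM in CNT1-G283E (SD, n = 2; log2 fold change -0.58 ± 0.094).

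The remaining falls were small and less firm. EXPA6 was read at 50.03 and 49.43 RPKM in CNT1 and at 56.25 and 54.68 RPKM in CNT1-G283E, a log2 fold change of -0.15 ± 0.042 (limma adjusted p = 0.0147). That call was lost without the intensity trend (limma adjusted p = 0.0604), without CNT1 replicate 1 (0.0784) and without CNT1 replicate 2 (0.108). EXPA15 averaged 3.75 ± 0.224 RPKM in CNT1, against 4.92 ± 0.434 RPKM in CNT1-G283E (SD, n = 2), with a limma adjusted p of 0.0258. Its call was lost when either CNT1 library was dropped (0.153 without the first, 0.0656 without the second), when CNT1-G283E replicate 1 was dropped (0.102) and when no filter on low values was used (0.0528).

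In CNT1, 3 alpha-expansins rose. EXPA9 (AT5G02260) showed the clearest rise, with 41.12 and 41.2 RPKM in CNT1 and 21.24 and 24.25 RPKM in CNT1-G283E, a 1.81-fold higher level (0.83 ± 0.066, limma adjusted p = 2.13e-05). EXPA1 (AT1G69530), known from guard cells, where it promotes stomatal opening, had 99.02 and 104.5 RPKM in CNT1 and 83.76 and 75.41 RPKM in CNT1-G283E (0.35 ± 0.058, limma adjusted p = 0.00116). Of 8 markers of guard cells and their lineage, 2 were higher, SPCH and MUTE, and 3 were lower, FAMA (not without CNT1 replicate 2), KAT1 and KAT2, in CNT1. These made up 62.5% of the list, near the 60.0% of all tested genes. MUTE, like EXPA12, passed the filter only through its CNT1 libraries, so its higher call was favoured by the filter. The summed level of the 8 markers was 25.21 and 23.46 RPKM in CNT1 and 28.86 and 31.37 RPKM in CNT1-G283E, and their part in the EXPA1 value was not tested. In whole-seedling libraries, fewer cells of a type and less RNA per cell cannot be told apart.

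EXPA12 was sparse and entered the test only through its values in CNT1. Its 42 and 59 reads in CNT1 and 5 and 12 reads in CNT1-G283E correspond to 1.582 and 2.255 RPKM in CNT1 and to 0.1984 and 0.5275 RPKM in CNT1-G283E. Corrected for depth, the ratio of summed reads was 5.40, with an exact 95% interval from counting error of 3.21 to 9.64. The log2 fold change of 1.10 ± 0.173 (limma adjusted p = 0.000939) understates the ratio because of the added pseudocount.

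EXPA3 and EXPA11, abundant in both groups, did not pass the test. EXPA3 (AT2G37640), the highest in every library, was read at 221 and 215.1 RPKM in CNT1 and at 235.3 and 226.5 RPKM in CNT1-G283E. Its log2 fold change was -0.08, with a 95% interval of -0.18 to 0.01 (limma adjusted p = 0.117, and 0.0359 without CNT1-G283E replicate 2). EXPA11 (AT1G20190) was read at 148.6 and 147.1 RPKM in CNT1 and at 148.3 and 145.1 RPKM in CNT1-G283E, a difference of 0.01 with an interval of -0.08 to 0.10, and its sign turned with median-of-ratios scaling. EXPA13 followed at 15.26 and 15.22 RPKM in CNT1 and 15.58 and 16.21 RPKM in CNT1-G283E (interval -0.19 to 0.08). For EXPA11 and EXPA13 these intervals leave room only for small differences on this scale.

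EXPA7 and EXPA18, the root hair expansins, did not pass. EXPA7 had 4.005 and 3.721 RPKM in CNT1 and 3.183 and 4.041 RPKM in CNT1-G283E. EXPA18 had 3.184 and 3.055 RPKM in CNT1 and 3.54 and 5.636 RPKM in CNT1-G283E (log2 fold change -0.41, unadjusted 95% interval -0.81 to -0.02, limma adjusted p = 0.0655, and 0.00175 without CNT1-G283E replicate 1). Of 8 tested root hair markers, 2 passed the test, against 60.0% of all genes: 1 fell, LRX2, a wall protein gene, and 1 rose, CSLD3, a cellulose synthase-like gene, and the summed level of the list of 10 was 65.08 and 64.23 RPKM in CNT1 and 65.78 and 81.05 RPKM in CNT1-G283E. In that sum, as in EXPA18, CNT1-G283E replicate 2 was the highest library. Without CNT1-G283E replicate 1, 3 root hair markers were lower, and without CNT1-G283E replicate 2, 2 were higher. EXPA2, known from germinating seeds, had 2.402 and 3.202 RPKM in CNT1 and 2.871 and 3.013 RPKM in CNT1-G283E. EXPA10, which promotes leaf growth, averaged 9.35 ± 0.0868 RPKM in CNT1, against 8.17 ± 0.385 RPKM in CNT1-G283E, and its limma adjusted p was 0.0739 (SD, n = 2). EXPA20 averaged 7.78 ± 0.202 RPKM in CNT1, against 9.07 ± 1.11 RPKM in CNT1-G283E. Its limma adjusted p was 0.108, and 0.0183 without CNT1-G283E replicate 1.

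Another 10 members did not pass the filter and were not tested. Of them, 7, EXPA22, EXPA23, EXPA25, EXPA26, EXPB2, EXPB4 and EXPB5, had 0 reads in all 4 libraries. For EXPB5, as an example, 3 reads per library would have been 0.0927 RPKM at the deepest library and 0.108 RPKM at the shallowest. EXPA17, which acts in lateral root emergence, had 8 and 8 reads in CNT1 and 4 and 7 reads in CNT1-G283E, a depth-corrected ratio of 1.32 with a counting interval of 0.577 to 3.15. EXPA21 had 22 and 22 reads in CNT1 and 15 and 20 reads in CNT1-G283E, a ratio of 1.14 with an interval of 0.717 to 1.84. EXPA24 had 1 read in CNT1 and 2 reads in CNT1-G283E.

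The 4 alpha-expansins with 0 reads were neighbours. EXPA21 to EXPA26 lie together on chromosome 5 (15726243 to 15740605 in TAIR10.1, a span of 14.4 kb), all on the minus strand and each with 2 exons. Within this cluster, the coding sequences of EXPA22 and EXPA26 were 97.7% identical over 840 bases, with identical runs of up to 208 bases, and those of EXPA23 and EXPA25 were 97.5% identical over 828 bases, with runs of up to 219 bases. How reads that match several genes were counted is not given in the sources used here, so a value of 0 in these 4 genes is uncertain. Among all 300 pairs of alpha-expansins, the median identity was 65.2%.

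Summed over the 25 genes, alpha-expansin level was lower in CNT1. The sums were 758 and 758.2 RPKM in CNT1 and 941.9 and 908.1 RPKM in CNT1-G283E, a ratio of 0.82. The sums are given without a test. With 2 libraries against 2, an exact two-sided permutation test gives no p under 0.33. Of the difference of -166.9 RPKM, EXPA8 alone gave -100.2 and EXPA4 gave -48 RPKM, and EXPA1 and EXPA9 offset them by 22.2 and 18.4 RPKM. The make-up of the sum shifted with it. EXPA8 held 8.99% of the summed level in CNT1, where it ranked 4th, against 18.2% in CNT1-G283E, where it ranked 2nd. EXPA5 ranked 12th in CNT1 and 8th in CNT1-G283E, and EXPA9 ranked 7th in CNT1 and 9th in CNT1-G283E. EXPA3, EXPA8, EXPA11, EXPA4, EXPA1 and EXPA6 together held 83.9% of the sum in CNT1 and 84.3% in CNT1-G283E.

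**Figure D2:**
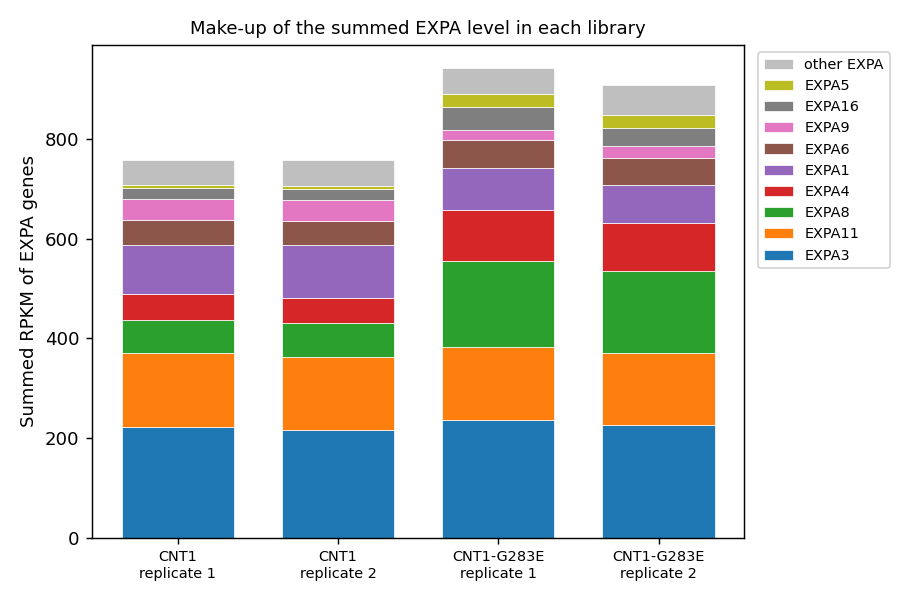
Summed RPKM of the 25 alpha-expansin genes in each library, stacked by gene, with the 9 genes named in the key and the rest in light grey. The CNT1 stacks reach 758 and 758.2 RPKM and the CNT1-G283E stacks 941.9 and 908.1 RPKM, and the green EXPA8 and red EXPA4 blocks are the ones that differ most.

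Both measurable beta-expansins fell. EXPB1 (AT2G20750) was read at 5.93 and 6.207 RPKM in CNT1, against 18.62 and 18.94 RPKM in CNT1-G283E, a 3.09-fold lower level (-1.48 ± 0.067, limma adjusted p = 1.11e-06). EXPB3 (AT4G28250) was read at 10.57 and 10.43 RPKM in CNT1, against 28.4 and 23.56 RPKM in CNT1-G283E, a 2.47-fold lower level (-1.22 ± 0.087, limma adjusted p = 1.17e-05). The groups were well apart in both genes. Summed over the 5 genes, beta-expansins stood at 16.5 and 16.64 RPKM in CNT1 and at 47.02 and 42.5 RPKM in CNT1-G283E, a ratio of 0.37, all of it from these 2 genes.

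The expansin-like A genes moved in different directions. EXLA2 (AT4G38400), which has been linked to the response to a necrotrophic fungus, had 19.83 and 16.07 RPKM in CNT1 and 38.25 and 43.25 RPKM in CNT1-G283E, a 2.27-fold lower level (-1.14 ± 0.098, limma adjusted p = 3.33e-05). Its CNT1 libraries differed from each other by 20.9%, the widest such gap among expansins of at least 5 RPKM. EXLA1 (AT3G45970) had 39.84 and 38.47 RPKM in CNT1 and 44.46 and 49.28 RPKM in CNT1-G283E (-0.25 ± 0.058, limma adjusted p = 0.00658, and 0.0513 without CNT1 replicate 2). EXLA3 (AT3G45960) rose, with 5.693 and 6.511 RPKM in CNT1 and 1.823 and 1.724 RPKM in CNT1-G283E, a 3.44-fold higher level (1.35 ± 0.104, limma adjusted p = 1.79e-05). It rested on 158 and 178 reads in CNT1 and 48 and 41 reads in CNT1-G283E.

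EXLA3 and EXLA1 are neighbours on chromosome 3 (16892702 to 16894153 and 16896166 to 16897308 in TAIR10.1, both on the plus strand), 2012 bases apart, and their values went in opposite directions. Their coding sequences were 86.6% identical, with no identical run over 57 bases, against 85.0% between EXLA1 and EXLA2. The 90-base window shown is the first with the fewest differences between EXLA1 and EXLA3, among ungapped windows starting at a codon of EXLA1. Whether reads tell the copies apart was not tested. The window covers coding bases 7 to 96 of EXLA1 and EXLA3 and 10 to 99 of EXLA2. Capitals mark bases that differ from EXLA1, 3 in EXLA3 and 18 in EXLA2.
EXLA1: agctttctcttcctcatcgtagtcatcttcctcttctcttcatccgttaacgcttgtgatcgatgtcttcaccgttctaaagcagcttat
EXLA3: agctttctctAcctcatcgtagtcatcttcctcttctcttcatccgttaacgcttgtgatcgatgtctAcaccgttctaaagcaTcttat
EXLA2: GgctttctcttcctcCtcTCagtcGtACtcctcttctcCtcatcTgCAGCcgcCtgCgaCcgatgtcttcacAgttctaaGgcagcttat

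EXLB1 (AT4G17030), the single expansin-like B gene, had the lowest log2 fold change of the tested members. It was read at 5.645 and 4.754 RPKM in CNT1, against 23.36 and 26.02 RPKM in CNT1-G283E, a 4.75-fold lower level (-2.05 ± 0.092, limma adjusted p = 1.03e-06). By subfamily, 7 of 18 tested EXPA genes were lower and 3 higher in CNT1, and of the 6 tested EXPB, EXLA and EXLB genes 5 were lower and 1 higher. Called members made up 55.6% of the tested EXPA genes, near the 60.0% of all tested genes. The median log2 fold change was -0.12 over the tested EXPA genes and -1.18 over the other 6, a difference between subfamilies that was not tested.

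**Figure D3:**
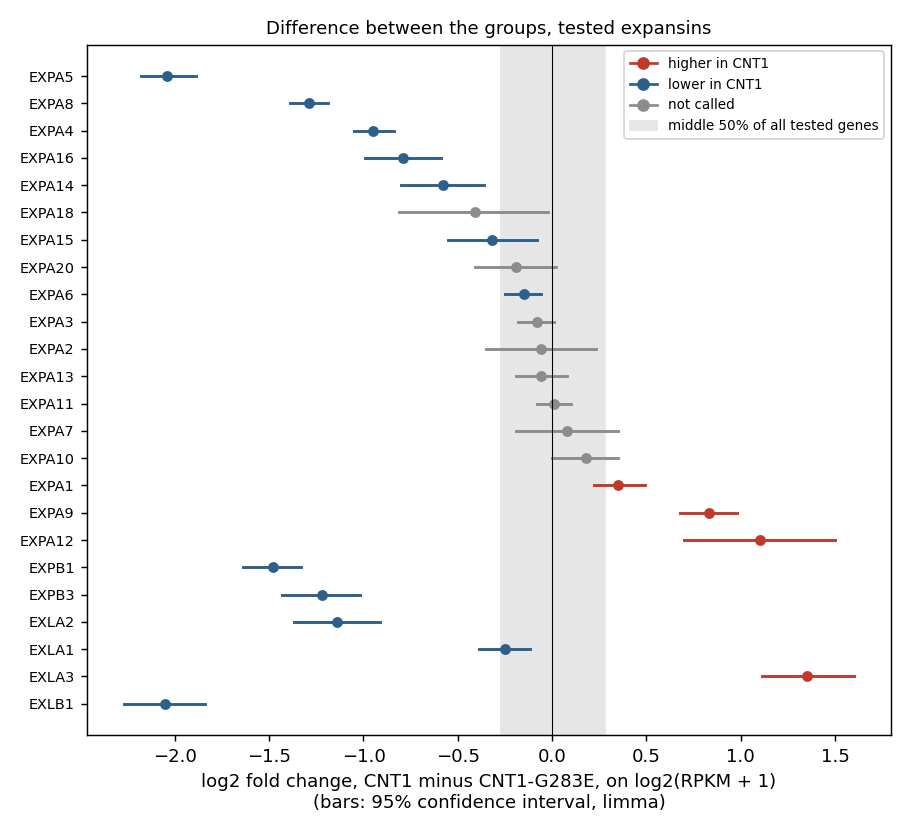
Log2 fold change (CNT1 minus CNT1-G283E, on log2(RPKM + 1)) of the 24 tested expansins, ordered within EXPA, EXPB, EXLA and EXLB, with 95% confidence intervals from limma; colours give the call and the grey band spans the middle 50% of all tested genes (-0.27 to 0.28). EXPA5 and EXLB1 lie near -2, and 8 alpha-expansins have grey, uncalled intervals.

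Other genes of wall extension were set beside the expansins. Of 29 tested xyloglucan endotransglucosylase/hydrolase (XTH) genes, whose enzymes remodel the xyloglucan of the wall, 16 were lower and 7 higher in CNT1. These were 55.2% and 24.1% of the list, against 29.0% and 31.1% of all tested genes. The median log2 fold change was -0.31. The calls of XTH22 and XTH33 were lost in 5 and 6 of 13 alternatives. XTH25, whose call was lost without CNT1 replicate 2, passed the filter only through its CNT1-G283E libraries, which favoured its lower call. XTH17 averaged 107 ± 1.88 RPKM in CNT1, against 867 ± 56.7 RPKM in CNT1-G283E (SD, n = 2), and XTH6 averaged 23.9 ± 1.22 RPKM in CNT1, against 8.75 ± 0.181 RPKM in CNT1-G283E. Of 8 tested plasma membrane proton pumps, which acidify the wall, 3 fell (37.5%) and 1 rose (12.5%), none of them by 2-fold on the log2(RPKM + 1) scale. HA2 averaged 383 ± 0.377 RPKM in CNT1, against 516 ± 2.95 RPKM in CNT1-G283E, HA11 rose by 0.54 ± 0.043 (log2, SE), and HA1 had a log2 fold change of -0.12 ± 0.056 (limma adjusted p = 0.105). Of 8 tested genes of primary wall cellulose synthesis, 5 fell (62.5%) and 3 rose (37.5%), none by 2-fold on that scale. The calls of CESA1, CESA3 and CSI1, which rose, and of COB, which fell, were lost when either CNT1 library was dropped. Those of CESA1, CESA3 and COB were also lost without the intensity trend. The lower call of CESA5 was lost without CNT1 replicate 1.

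Regulators linked to expansin genes or to elongation growth were read alongside. Of 17 such factors, 5 were lower (29.4%, against 29.0% of all tested genes) and 2 higher (11.8%, against 31.1%). PIF5, which was higher, lost its call without CNT1 replicate 1. HAT2, a homeodomain factor of auxin and shade responses, averaged 25.4 ± 0.353 RPKM in CNT1, against 64.0 ± 1.39 RPKM in CNT1-G283E (SD, n = 2). ATHB-2, of the same class, averaged 29.2 ± 0.503 RPKM in CNT1, against 54.8 ± 0.814 RPKM in CNT1-G283E, and PIF3 rose by 0.66 ± 0.050 (log2, SE).

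Markers of several tissues moved with the same contrast, in which 29.0% of all tested genes were lower and 31.1% higher in CNT1. All 8 xylem markers fell, with a median of -0.89 and a summed level of 195.3 and 199.4 RPKM in CNT1 and 382.5 and 361.3 RPKM in CNT1-G283E, and the calls of VND6 and VND7 were lost without CNT1 replicate 1. All 6 mesophyll markers rose, with a median of 1.55 and a summed level of 10463 and 10363 RPKM in CNT1 and 3278 and 3389 RPKM in CNT1-G283E. Of 10 root markers, 4 were tested, 2 fell and 1, SCR, rose, a call lost under 8 of 13 alternatives, and the sums of 1962 and 1952 RPKM in CNT1 and 3986 and 3738 RPKM in CNT1-G283E were almost all PYK10. The root meristem and root cap genes PLT1, PLT2, WOX5, SMB, BRN1 and BRN2 averaged under 1 RPKM in both groups. Of 6 lateral root markers, 1 of which (LBD18) was also among the regulators, 2 were tested and 1, LBD16, fell, and the sums were 5.057 and 4.908 RPKM in CNT1 and 7.957 and 9.246 RPKM in CNT1-G283E. Without CNT1-G283E replicate 1, 2 lateral root markers were lower. None of these markers was at 0 in a group. Their part in the expansin values was not tested.

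**Figure D4:**
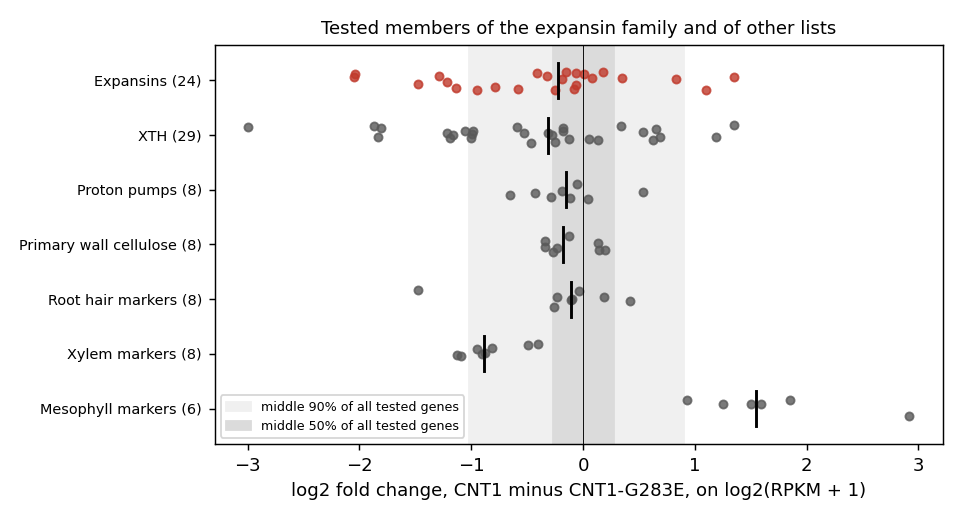
Log2 fold change (CNT1 minus CNT1-G283E, on log2(RPKM + 1)) of the tested members of the expansin family (red) and of 6 other lists (grey), 1 point per gene with vertical jitter; black bars are list medians and the bands span the middle 50% and 90% of all tested genes. Expansin and XTH genes spread to both sides of 0, while all 8 xylem markers lie below and all 6 mesophyll markers above it.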

How the data were processed

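Whole-seedling poly(A) RNA was sequenced. Bowtie2 2.2.2 and TAIR10 stand in the submitters' processing notes. The authors deposited 1 table of RPKM per library. Not given in the sources used here are the read counter, strand use and the treatment of reads that match several genes.

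Library denominators were recovered as the whole numbers that turn low RPKM values into whole reads at annotated lengths. At these, 100% of 24360 rows above 0 gave whole reads within 0.001 reads (1 row did not). The annotated length served in 19.6% of them, and a fitted length in the others. Fitted lengths were picked because they made the reads whole, so those rows are no independent check of the denominators. Intervals and floors (3 reads per library) cover counting error only.

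Values were taken as log2(RPKM + 1). The filter was 1 RPKM or more in 2 or more libraries, and the test was by limma 3.58.1 under R 4.3.3 (group only, intensity trend, Benjamini-Hochberg adjustment over all 19201 genes). Fold on this scale understates changes of low genes, and n-fold levels are ratios of mean RPKM. Motifs and coding identities were read from TAIR10.1 with Python 3.11.15 and Biopython 1.88. The annotation matched 26719 of 27416 rows. Protein features were planned and not run.

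Members and lists were chosen with earlier results of these data known. All members are accounted for, and those of at least 10 RPKM or changed at least 2-fold are given by library. From each of 10 lists, up to 3 called genes per direction were open to naming, with HA1 and HA2. The failing markers and those under 1 RPKM named beside them, and library values of other members, were chosen after their values were seen. So were the XTH and cellulose synthesis genes named for the filter or for lost calls. Alternatives were 3 scalings, 2 filters, another pseudocount, no trend, limma-voom on recovered reads, the replicate block and leaving out each library with the tested genes kept.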

Additional observations from a re-analysis of the deposited data

How the results depend on the processing

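Of 16 member calls, 13 held in every alternative in which the gene was tested, and the exceptions are EXPA6, EXPA15 and EXLA1. With a mean of at least 5 RPKM, 2 expansins were higher in place of 4, and 0 in place of 1 among EXPB, EXLA and EXLB genes, because EXPA12 and EXLA3 do not reach that mean. With each library left out in turn, the tested genes were kept. EXPA12, 1 of the 13, thus stayed in without either CNT1 library, when it would otherwise have failed the filter. Its log2 fold change then ranged from 0.92 to 1.27 over the 4 fits. EXPA3, EXPA18 and EXPA20 were called lower only with a CNT1-G283E library left out. Directions turned only in members that did not pass: EXPA11 was at -0.01 with median-of-ratios scaling, and with a library left out it ranged from -0.0044 to 0.03, EXPA2 from -0.21 to 0.09 and EXPA7 from -0.05 to 0.22 (log2). The log2 ratio of summed levels ranged from -0.31 to -0.26 for EXPA and from -1.50 to -1.36 for EXPB with a library left out. The replicate numbers are not shown to pair libraries (correlation of deviations -0.0231), and with the replicate block 4 expansins were higher and 12 lower, as without it, against 5791 and 5423 of all genes. In leave-one-out fits, the lone library of a group is assumed to vary like the other group. Depth limits EXPA12, EXPA17, EXPA21 and EXPA24 most.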

Other observations

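The lower calls are given here by chromosome, a split chosen after the values were seen and not tested. On chromosome 2, 5 of 6 tested expansins were lower and 0 higher in CNT1, the sixth being EXPA3. Of the 2885 tested genes of that chromosome, 29.3% were lower and 31.4% higher. The lower calls of EXPA6 and EXPA15, both on chromosome 2, were lost in some alternatives. On chromosome 1, 0 of 5 tested expansins were lower and 1, EXPA1, was higher, while 29.8% of 4980 tested genes were lower and 30.1% higher. On chromosome 4, 3 of 4 were lower, EXPB3, EXLA2 and EXLB1, while 29.8% of 2907 tested genes were lower. EXPA20, the only other tested expansin on that chromosome, did not pass. On chromosome 3, 3 of 6 were lower and 2 higher, while 27.7% of its tested genes were lower and 31.5% higher. The lower call of EXLA1, on chromosome 3, was lost without CNT1 replicate 2, and EXPA12, higher there, passed the filter only through CNT1. On chromosome 5, 1 of 3 was lower and 1 higher, while 29.1% of its tested genes were lower and 31.4% higher.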
